A study of Mus musculus with 3 samples.

Results

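The genes described here encode subunits of the intraflagellar transport B (IFT-B) complex, and the question was where Tra2β contacted their RNA in the adult mouse testis. The 10 genes Ift20, Ift27, Ift46, Ift52, Ift57, Ift74, Ift80, Ift81, Ift88 and Ift172 were taken by name from the 21770 protein-coding genes of the GENCODE vM39 annotation, and all 10 were found. Each was read along its Ensembl canonical transcript, whose exons are numbered from the 5′ end. The set was built around Ift57, which had been selected on the crosslink counts of its exon 4 in these same libraries. The values of Ift57 are therefore a description and were not tested.

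The samples were 3 Tra2β iCLIP libraries from testes of adult wild-type mice, prepared with a polyclonal antibody to Tra2β and treated by the study as biological replicates of 1 group. In iCLIP, ultraviolet light couples protein and RNA where they are in contact, and the contacted nucleotide is read from the end of each cDNA. A crosslink below is 1 unique cDNA at 1 nucleotide of the gene's own strand. The labels describe homogenised total testes, and the study's methods state that germ cells released by mincing were irradiated. The labels gave no strain and called the cell type mixed, nothing in them said that the libraries came from separate animals, and no control library was used here. All comparisons were therefore internal to a library. In such a mixture, the number of cells that express a gene, the amount of RNA per cell and the extent of binding cannot be told apart from crosslinks alone.

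IFT-B is the cargo-carrying train that kinesin moves towards the tip of a cilium or flagellum. In the male germ line it builds the sperm flagellum, and mice that lack certain IFT-B subunits in germ cells have malformed sperm tails. IFT74 and IFT81 form a pair of coiled-coil proteins that binds tubulin. IFT88, IFT52 and IFT46 belong to the core of the complex, and IFT27 is a small GTPase within it. IFT57, IFT20, IFT80 and IFT172 belong to the peripheral part. Tra2β is a nuclear splicing regulator that binds purine-rich RNA, with GAA as the core of its motif, and activates the exons in which it binds.

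The stretches that carried the most crosslinks in the leading exons are printed first, because they are the sites the exon comparisons below turn on. Each line shows the 30-nt window with the most crosslinks in its exon (the first such window where several tie), as the sense strand written in DNA letters from GRCm39, with copies of GAA in capitals. The windows of Ift57 exon 4, Ift74 exon 9, Ift81 exon 7, Ift88 exon 16 and Ift172 exon 22 come from the internal exon with the most crosslinks in each of the 5 members with at least 60 exonic crosslinks, and those of Ift74 exons 17 and 18 and Ift81 exon 13 were added after their values were seen.
Ift57 exon 4, chr16:49526511-49526540, plus strand: gttaacattaagtaaagtggatGAAGAAtt
Ift74 exon 9, chr4:94541179-94541208, plus strand: caGAAgtgtaGAAGAAGAAgttGAAcaaga
Ift74 exon 17, chr4:94573987-94574016, plus strand: gcagctttaaaatcatcagctGAAGAAaag
Ift74 exon 18, chr4:94575048-94575077, plus strand: aaattgcatcaaGAAaGAAcagtattgtca
Ift81 exon 7, chr5:122740364-122740393, minus strand: cttcgagttgaGAAagagagaGAAGAAttt
Ift81 exon 13, chr5:122707073-122707102, minus strand: cGAActattGAAGAAaaGAAgggtatatct
Ift88 exon 16, chr14:57713519-57713548, plus strand: tgtttgaGAAGAAggacagtagagtGAAga
Ift172 exon 22, chr5:31423689-31423718, minus strand: tggacacacagcaagagGAAcgagcaggtg
All 8 windows are coding, hold 63.3% to 80.0% purines and contain at least 1 GAA. GAA was searched on the sense strand only, and 53.5% of 251049 consecutive 30-nt windows in internal exons of the genes tested below also held at least 1, with 19.0% holding 2 or more. The window of Ift74 exon 9 holds 5 copies, a number reached or passed by 0.176% of those windows. Its crosslinks numbered 7, 2 and 8 in replicates 1, 2 and 3, and those in the Ift57 exon 4 window 6, 5 and 4. The Ift74 exon 18 window had 7, 0 and 14. A match of these letters describes the sequence and does not mark a binding site.

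The libraries held 348033, 619571 and 488719 crosslinks in replicates 1, 2 and 3, and 3 counts, the limit that a count of 0 allows, correspond to 8.62, 4.84 and 6.14 CPM (crosslinks scaled to a library total of 1000000). Of the crosslinks in canonical transcripts of all protein-coding genes, 43.1%, 26.9% and 55.7% lay in exons, so replicate 2 was the least exonic and replicate 3 the most exonic. The tissue label was checked on marker genes. All 8 germ cell markers had exonic crosslinks, with summed levels of 1224, 286 and 1653 CPM, while the 4 liver markers were at 0 in every library. Of the somatic markers, 3 of 4 Sertoli cell genes had exonic crosslinks (Amh was at 0), with sums of 17.2 to 27.4 CPM, and all 4 Leydig cell genes did, with 33.9 to 89.1 CPM. The germ cell sum and the exonic share thus moved together over the libraries. They are not independent measures, since the exonic share of a library enters an exonic sum. Their part in the levels below was not tested.

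The 10 genes held 1449 crosslinks, 712 of them in their 181 exons and 737 in their 171 introns. In replicate 1, 43.4% of them were exonic (38.4 to 48.4, 95% Clopper-Pearson interval). Replicate 2 had 31.5% (27.1 to 36.2), and replicate 3 had 64.6% (60.8 to 68.4). Exons make up 7.24% of the length of these transcripts. The order of the 3 libraries is that seen over all genes. The members contributed very unequally. Ift74 alone held 34.3% of the exonic crosslinks, Ift81 18.7%, Ift172 14.3% and Ift57 11.9%, and Ift27 held 0.562%.

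Per length, the pair of tubulin-binding genes led the complex. Exonic crosslinks of Ift74 came to 71.0, 13.7 and 125 CPM per kb in replicates 1, 2 and 3 (mean 69.8 ± 55.6, SD, n = 3). Replicate 2 was far below the others for this gene, as for the germ cell markers. Its partner Ift81 had 25.1, 13.0 and 57.0 CPM per kb (31.7 ± 22.7). Ift172, the largest subunit, had 16.9, 7.71 and 16.5 CPM per kb (13.7 ± 5.20). These genes took ranks 1, 2 and 3 in this order in each of the 3 libraries. Ift88 followed at 8.43 ± 3.52, Ift80 at 7.16 ± 5.02 and Ift57 at 6.69 ± 4.08 CPM per kb. The lowest levels were those of Ift20 (4.93 ± 1.76), Ift52 (3.58 ± 1.57), Ift27 (3.06 ± 2.21) and Ift46 (2.47 ± 0.951).

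Neighbours at the top of this order differed in the same direction in every library. The log2 ratio of exonic crosslinks per nt was 0.90 ± 0.73 for Ift74 over Ift81, 1.04 ± 0.65 for Ift81 over Ift172 and 0.69 ± 0.24 for Ift172 over Ift88 (mean ± SD, n = 3). From Ift88 down, no gene exceeded its neighbour in all 3 libraries, and each mean log2 ratio was smaller than its SD. In replicate 2 the lead of Ift74 over Ift81 was only 0.08. Among the 13718 protein-coding genes with any exonic crosslink, whose median level was 1.50 CPM per kb, Ift74 stood above 99.1%, Ift81 above 97.0%, Ift172 above 91.4% and Ift46, the lowest member, above 61.9%. RNA abundance was not measured in these libraries, so these are levels of crosslinks and not of RNA.

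**Figure D1:**
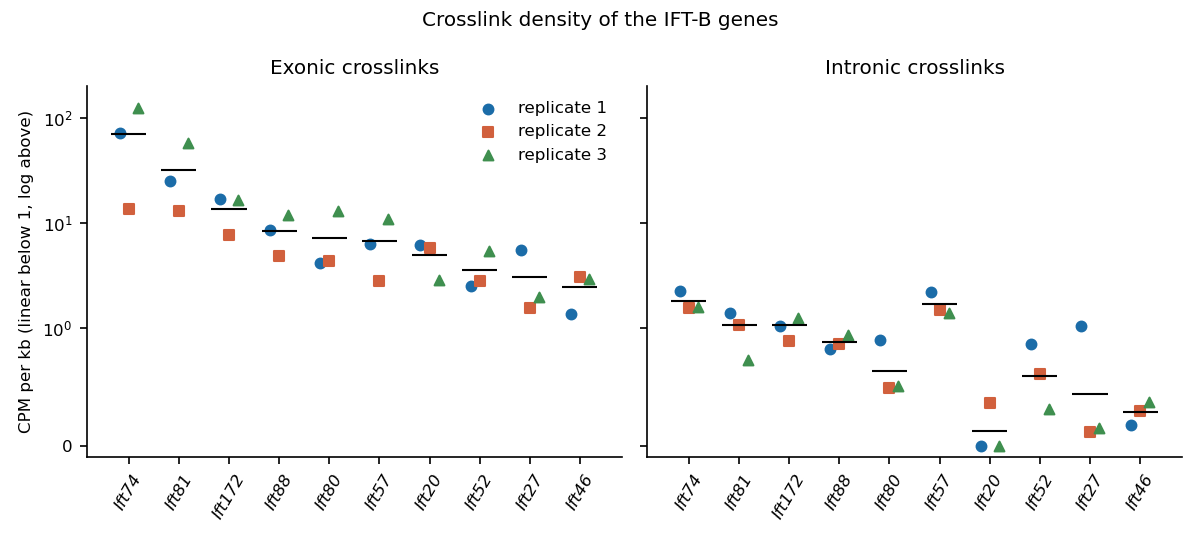
CPM per kb of exon (left) and of intron (right) for the 10 IFT-B genes, on an axis that is linear below 1 and logarithmic above. Points are the 3 libraries and bars their means. Ift74 (13.7 to 125 CPM per kb in exons) and Ift81 (13.0 to 57.0) lie highest in exons, and intronic means are all below 2.

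Introns of the members were crosslinked at lower and more even density. The mean intronic level was 1.82 ± 0.402 CPM per kb for Ift74, 1.70 ± 0.458 for Ift57, 1.07 ± 0.336 for Ift81, 1.07 ± 0.183 for Ift172 and 0.880 ± 0.0624 for Ift88, and it was lowest for Ift20 with 1 intronic crosslink in all (0.120 ± 0.209). In replicate 2, Ift74 kept an intronic level of 1.58 CPM per kb, against 2.29 and 1.60 in replicates 1 and 3. The low exonic level of Ift74 in that library was therefore not matched in its introns.

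To ask whether exons were preferred over introns, exonic crosslinks were compared with intronic ones per nt in each library (two-sided exact binomial test, Benjamini-Hochberg adjusted over all 6907 genes tested, called when under the threshold of 0.05 in all 3 libraries). This preference was common, with 36.5% of genes called higher in exons and 0.0290% called lower. At a minimum of 50 crosslinks per gene, 2195 of 3951 genes were called higher, a larger share. Besides Ift57, 7 members had the 20 crosslinks needed, and 5 of them were called higher in exons. Ift20 and Ift27 had too few.

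Ift74 had 64, 22 and 158 exonic crosslinks against 61, 75 and 60 intronic ones, and its log2 fold per nt was 4.79 ± 1.57 (SD, n = 3, largest adjusted p = 9.25e-12 by the exact binomial test). Ift81 had 26, 24 and 83 exonic against 30, 41 and 22 intronic crosslinks, a log2 fold of 4.67 ± 1.40 (largest adjusted p = 1.13e-14, exact binomial test). For both, replicate 3 was the most exonic and replicate 2 the least. The log2 folds were 3.58 ± 0.44 for Ift172, 3.38 ± 1.19 for Ift80 and 3.18 ± 0.61 for Ift88, with largest adjusted p of 1.09e-10, 0.00713 and 2.42e-06 (exact binomial test). Ift46 (2.94 ± 0.28, largest adjusted p = 0.160) and Ift52 (2.72 ± 1.20, largest adjusted p = 0.256) passed the exact test in 2 of 3 libraries each and were not called. The fold of Ift57 was 1.82 ± 1.04. The median of the 7 tested members was 3.38, beside 2.50 over all genes tested. Without replicate 1, Ift46 and Ift52 were called as well, which makes 7 of 7, while calls over all genes rose too, to 2977 of 5955.

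The same test gave mixed counts in genes that work with IFT-B, beside the 36.5% of all genes. That share is larger among genes with more crosslinks. Of the remaining IFT-B genes, 4 of 8 could be tested and 3 were called, and all 6 genes of the IFT-A complex, which runs the return journey, were called. Of the 6 motor genes 5 could be tested and 4 were called, and of the BBSome genes, which encode a membrane-cargo adaptor, 4 of 8. The median log2 fold of the tested genes was 2.56 for the remaining IFT-B genes, 3.25 for IFT-A, 3.37 for the motors and 2.04 for the BBSome, the last below the 2.50 of all genes. Differences between the lists were not tested. Exonic levels in these lists ran from 0 for Ift25 to 18.4 ± 10.9 CPM per kb for Cluap1 among the remaining IFT-B genes, from 3.38 ± 1.37 for Wdr19 to 24.4 ± 15.5 for Ift43 in IFT-A, from 1.64 ± 1.49 for Dync2li1 to 25.2 ± 16.7 for Kif3b among the motors, and from 0.589 ± 1.02 for Ttc8 to 11.1 ± 7.73 for Bbs5 in the BBSome. Counts of Ift70a1, Ift70a2 and Ift70b are uncertain because the genes are near-identical copies.

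Exon 4 of Ift57 served as the point of reference for the other profiles. It is a 91-nt coding exon at chr16:49526454-49526544 on the plus strand, and its length is not a multiple of 3. It held 8, 9 and 6 crosslinks of the 20, 16 and 49 exonic crosslinks of the gene. Replicate 1 thus had 40.0% there (19.1 to 63.9, 95% Clopper-Pearson interval). The value for replicate 2 was 56.2% (29.9 to 80.2) and that for replicate 3 was 12.2% (4.63 to 24.8). The exon makes up 0.995% of the exonic length. The raw count in the exon changed little between libraries, but scaled to library depth it came to 253, 160 and 135 CPM per kb. The rest of the exons held 12, 7 and 43 crosslinks, and the share was lowest in replicate 3.

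The log2 fold of exon 4 over the other exons per nt was 6.08, 6.98 and 3.89 (5.65 ± 1.59, SD, n = 3), and much of it depended on the reference. The other exons include exon 11 of 7881 nt, almost all of it 3′ UTR, which held only 2, 2 and 11 crosslinks. Against the internal exons alone the fold of exon 4 was 2.99, 4.59 and 1.12 (2.90 ± 1.74). Against coding bases alone, an alternative chosen after seeing the data, it was 2.96 ± 1.65. Within exon 11 the 176 coding nt held 7 crosslinks (39.8 per kb, 3 libraries summed), the next 1000 nt held 6 and the remaining 6705 nt held 2 (0.298 per kb). By 3 equal parts of the spliced transcript, the exonic crosslinks of Ift57 numbered 84, 0 and 1.

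Crosslinks within exon 4 were fewest in its first 30 nt. Positions 1 to 30 held 1 crosslink in each library, positions 31 to 60 held 2, 6 and 1, and positions 61 to 91 held 5, 2 and 4. In replicate 1, 5 of 8 crosslinks lay at positions 83 to 87, and in replicate 2, 5 of 9 lay at positions 53 to 59. The exon contains 8 copies of GAA, of which 4 start in the first 30 nt, 2 in the next 30 and 2 in the rest. The same nucleotide was hit in more than 1 library at 4 positions of the exon, and in all 3 at none. The 100 nt of intron on either side held no crosslinks in any library. Introns 3 (2822 nt) and 4 (5657 nt) held only 1, 0 and 2 and 5, 2 and 0 in all. At that density an empty stretch of 100 nt says little.

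**Figure D2:**
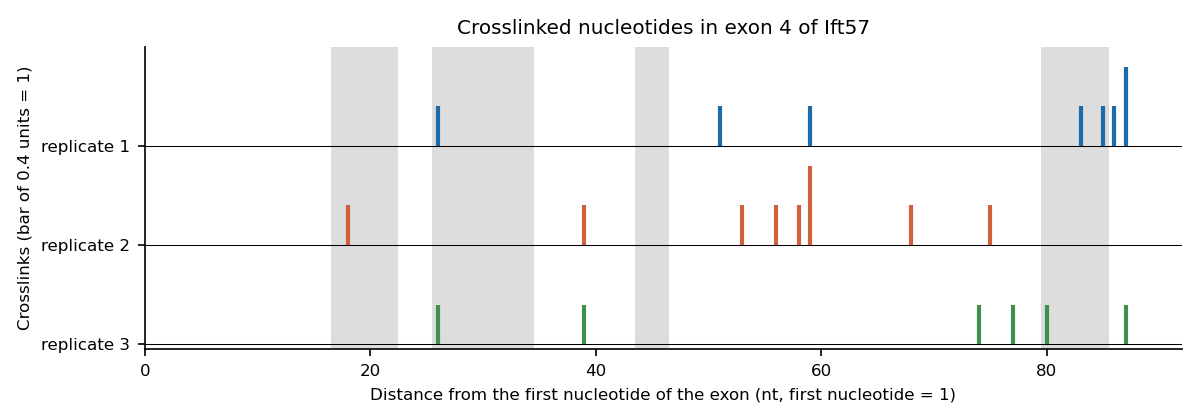
Crosslinked nucleotides along the 91 nt of Ift57 exon 4, counted from its first nucleotide, with a row for each library and bar height for the number of crosslinks. Grey bands are the 8 copies of the trinucleotide searched for. Replicates 1, 2 and 3 have 8, 9 and 6 crosslinks, and 11 of the 23 lie at positions 61 to 91.

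By sequence, exon 4 of Ift57 was unusual. Its 8.79 GAA per 100 nt exceeded 99.0% of the 51567 internal exons of genes tested, and its purine content of 63.7% exceeded 90.2% of them. Among the 161 internal exons of the members, it was the second densest in GAA. Exon 10 of Ift57 (8.96 per 100 nt) ranked above it and exon 9 of Ift74 (8.63) just below it. The 3 exons had different counts, with 8, 9 and 6 crosslinks in exon 4, 2, 0 and 3 in the 67 nt of Ift57 exon 10, and 11, 2 and 20 in the 139 nt of Ift74 exon 9. The next exon by GAA content, exon 11 of Ift80, had no crosslink in any library.

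Exon 4, on whose counts Ift57 was selected, was also the second of the 161 by density of crosslinks (3 libraries summed), at 253 per kb. The 41-nt exon 12 of Ift74 stood above it at 268 per kb, on 2, 3 and 6 crosslinks. By library, exon 4 ranked 2, 1 and 10 of the 161 in replicates 1, 2 and 3, so its place was lower in the most exonic library. With the libraries summed, exons 18, 9 and 15 of Ift74 came next at 238, 237 and 214 per kb. These densities are not corrected for RNA level. The difference between Ift57 and Ift74 lay in the rest of the gene. Apart from exon 4, no internal exon of Ift57 exceeded 74.6 per kb, whereas the internal exons of Ift74 reached high densities at many places.

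**Figure D3:**
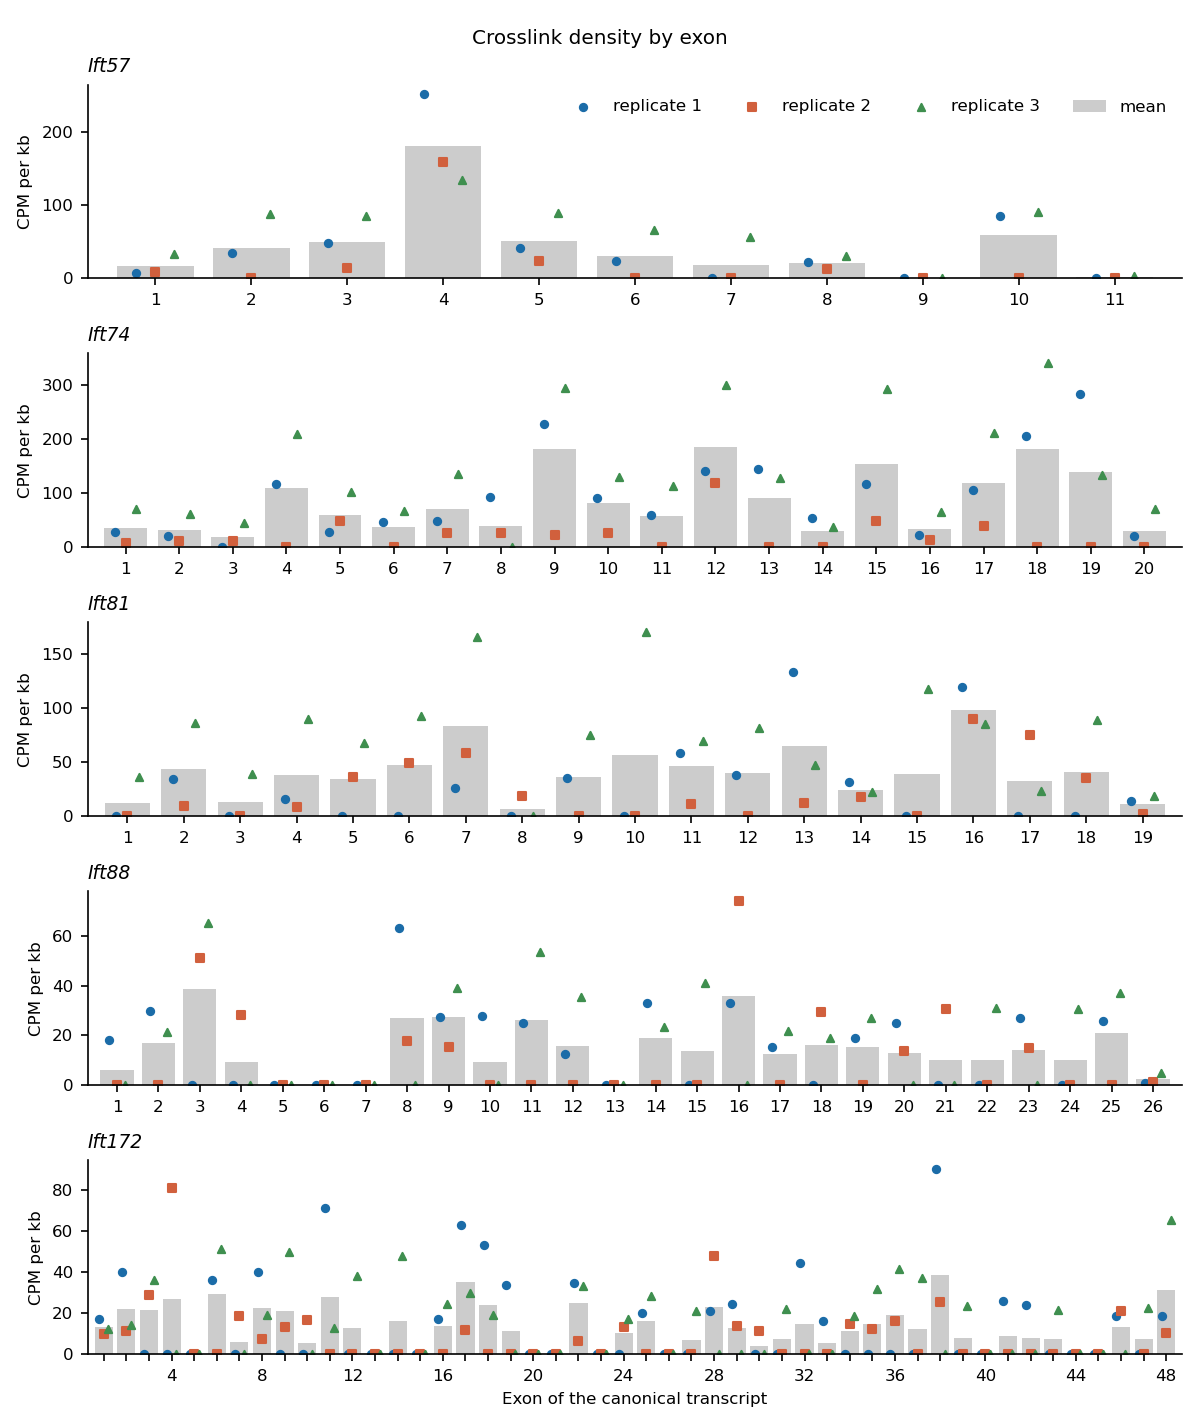
CPM per kb for every exon of the canonical transcripts of Ift57, Ift74, Ift81, Ift88 and Ift172. Grey bars are means of the 3 libraries and points the libraries. Exon 4 of Ift57, on whose counts the gene was selected, has a mean of 182 CPM per kb. In replicate 3 it has 135, beside 91.6 for exon 10 of the gene. Ift74 has several exons near that mean (exon 9, also at 182, and exon 12 at 186).

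Exon by exon, no exon of the other members tested was called, as was the case for nearly all exons of all genes. Each exon was set against the rest of its transcript by length (two-sided exact binomial test per library, Benjamini-Hochberg adjusted). The test covered 58715 exons in 3574 genes that had 20 or more exonic crosslinks. Such calls were rare, with 0.215% of exons called higher and 0.346% called lower in all 3 libraries. Of 133 exons of Ift74, Ift80, Ift81, Ift88 and Ift172, 0 were called in either direction by the exact binomial test, and at an unadjusted p under 0.05 in all 3 libraries 0 exons were higher and 2 lower. At such low shares over all exons, 0 calls among 133 does not set the members apart. Low counts also left little to call, as with the 6 exonic crosslinks of Ift80 in replicate 1. Exon 4 of Ift57 was not tested, so these counts give no contrast with it. Ift20, Ift27, Ift46 and Ift52 had fewer than 20 exonic crosslinks and were not tested.

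In Ift74, crosslinks reached every exon. All 20 exons held a crosslink in some library and 10 held one in all 3. Exon 9 had the most, with 11, 2 and 20, which is 17.2%, 9.09% and 12.7% of the exonic crosslinks of the gene from 5.37% of its length. Its log2 fold over the other exons was 1.92, 1.10 and 1.38 (1.47 ± 0.42, SD, n = 3), higher in each library, with adjusted p of 0.0389, 1.00 and 0.0155 by the exact binomial test. Without replicate 2, which held 22 exonic crosslinks of this gene, it was called higher. Exon 18 had 9, 0 and 21 crosslinks and a log2 fold of 0.72 ± 1.66, with an adjusted p of 0.00149 in replicate 3 only (exact binomial test). In replicate 2 the exon held none of the 22 exonic crosslinks of the gene (0 to 15.4%, 95% Clopper-Pearson interval). That interval includes the 14.1% and 13.3% of replicates 1 and 3.

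Further along Ift74, exon 17 held 6, 4 and 17 crosslinks (1.15 ± 0.61), exon 15 held 4, 3 and 14 (1.49 ± 0.65) and exon 12 held 2, 3 and 6 (2.07 ± 1.22), all above the other exons in each library by log2 fold without reaching the threshold in any. The smallest adjusted p among them was 0.0610 (exact binomial test), for exon 15 in replicate 3. The other exons with at least 5 crosslinks were exons 1, 2, 4, 5, 7, 10, 11, 13, 16, 19 and 20, with totals of 6 to 29. By 3 equal parts of the transcript, the exonic crosslinks of Ift74 numbered 69, 113 and 62. This is no like-for-like comparison with Ift57, whose 3′ UTR takes up 7705 of 9149 nt against 573 of 2590 in Ift74.

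Ift81, the partner of Ift74, also had crosslinks in all of its 19 exons, 8 of them in all 3 libraries. Of the internal exons, exon 7 led with 1, 4 and 9 crosslinks (log2 fold 1.61 ± 0.95), followed by exons 2, 4, 13 and 16 with 10 each. Exon 16 had 3, 4 and 3 in 72 nt (2.18 ± 1.22, smallest adjusted p = 0.0706, exact binomial test). Exon 13 had 6, 1 and 3 and passed the threshold in replicate 1 only (adjusted p = 0.0458, exact binomial test). Exons 5, 6, 9, 10, 11, 12, 15, 17 and 19 held between 5 and 15 crosslinks. Within Ift81 the largest share of an internal exon in a library was 23.1%, for exon 13 in replicate 1 (8.97 to 43.6, 95% Clopper-Pearson interval), on 6 of 26 crosslinks.

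The profiles of the remaining genes were flat or sparse. Ift172 had crosslinks in 38 of 48 exons but in all 3 libraries in 6, and its leading exon 22 (249 nt) held 3, 1 and 4. Its exons 8, 11, 17, 28 and 48 held 5 to 7 crosslinks in total. Ift88 had crosslinks in 22 of 26 exons. Its exon 16 held 1, 4 and 0 and passed the threshold in replicate 2 only (log2 fold 2.31 ± 2.26, adjusted p = 0.00660, exact binomial test). That fold was 0.85 ± 1.79 with the pseudocount on observed and expected crosslinks and 1.37 ± 2.20 against internal exons. Exon 12 held 1, 0 and 4. Ift80 had 6, 11 and 26 exonic crosslinks over 17 of its 20 exons, with 3 in its leading internal exon 17. Ift46 (2, 8 and 6 exonic crosslinks), Ift52 (2, 4 and 6), Ift20 (3, 5 and 2) and Ift27 (2, 1 and 1) had no internal exon with more than 3 crosslinks, and the most in any of their exons was 5, in the last exons of Ift46 and Ift52.

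Among the other lists of genes in the pathway, 2 exons were called, 1 higher and 1 lower, against 0.215% and 0.346% of all exons. Exon 7 of Kifap3, which encodes the cargo-linking subunit of the kinesin motor, was higher than the other exons with 7, 3 and 17 crosslinks (log2 fold 4.34 ± 1.29, largest adjusted p = 0.00616, exact binomial test). The last exon of Traf3ip1, exon 15 of 4524 nt, was lower (-3.09 ± 1.05, largest adjusted p = 0.00474, exact binomial test). With internal exons or coding bases as the reference, Kifap3 exon 7 was not called. Traf3ip1 exon 15 was not called with coding bases. As a last exon it is left out of the test on internal exons. They were found among 45 exons of 3 remaining IFT-B genes, 154 of 6 IFT-A genes, 147 of 5 motor genes and 86 of 5 BBSome genes.

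The last exon was less crosslinked than the internal exons in 5 of the 6 members with at least 20 exonic crosslinks, in all 3 libraries each. Over 3363 genes, 62.5% had that direction in all 3 libraries and the median log2 fold was -1.34, so the direction is the usual one. The log2 fold of the last exon over the internal exons was -5.34 ± 0.66 for Ift57, -2.77 ± 0.78 for Ift88, -2.43 ± 1.55 for Ift74, -2.05 ± 1.00 for Ift81 and -1.35 ± 0.18 for Ift80 (SD, n = 3). Ift172 was the exception at 1.30 ± 0.81, with 1, 1 and 5 crosslinks in a last exon of 157 nt, of which 70 nt are 3′ UTR. Against all other exons, the last exon of Ift88 came nearest to a call, with adjusted p of 0.0139, 0.0513 and 0.0244 (exact binomial test), and like it those of Ift74 and Ift81 passed in 2 of 3 libraries each. The contrast shrank when only coding bases were counted. How much of the annotated 3′ UTR is present in testis RNA was not measured. A reference of coding bases alone was chosen after seeing the data. On it the log2 fold of the last exon over the other exons was -0.85 ± 1.17 for Ift57, -0.58 ± 0.86 for Ift74 and -0.44 ± 1.55 for Ift81. It was 0.25 ± 0.79 for Ift88 and 0.66 ± 0.54 for Ift80. The means of Ift57, Ift74, Ift81 and Ift88 were each smaller than their SD. Ift80 lay above 0 in each library, but its last exon held 1, 2 and 5 crosslinks, of which 1, 2 and 4 lay in 3′ UTR. Its folds in replicates 1 and 2 thus come from the 0.5 crosslinks added to each count.

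**Figure D4:**
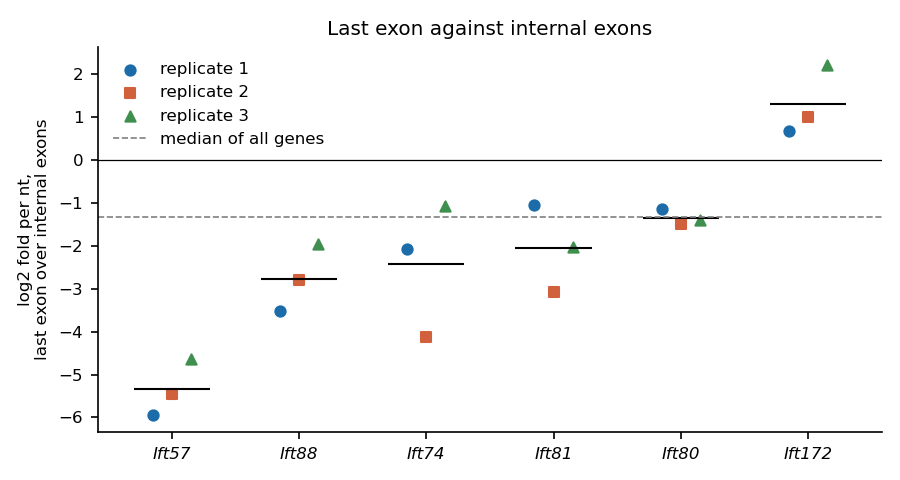
Log2 fold of crosslinks per nt in the last exon over the internal exons for the 6 IFT-B genes with at least 20 exonic crosslinks. Points are libraries, bars means and the dashed line the median of 3363 genes (-1.34). Ift57 lies lowest (-5.34) and Ift172 is the only one above 0 (1.30).

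The same contrast appeared between coding sequence and 3′ UTR. With the 3 libraries summed, Ift74 had 118 crosslinks per kb of coding sequence and 31.4 per kb of 3′ UTR. The values were 61.1 and 6.10 for Ift81, 59.1 and 1.04 for Ift57, 21.8 and 2.95 for Ift88 and 14.2 and 4.44 for Ift80. Of the 102 exonic crosslinks of Ift172, 99 lay in coding sequence and 0 in its 70 nt of 3′ UTR. In Ift52 (4.69 against 6.12) and Ift27 (3.58 against 13.1) the 3′ UTR was the denser, on 5 and 2 crosslinks in it.

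GAA content and crosslink density were compared across the internal exons of each gene. Spearman's rho was 0.82 over the 9 internal exons of Ift57 and 0.76 over 8 when exon 4 was left out. It was 0.52 for Ift88 (24 exons), 0.46 for Ift81 (17), 0.42 for Ift74 (18), 0.11 for Ift80 (18) and 0.05 for Ift172 (46), beside a median of 0.22 over 2415 genes. Exons of a gene share its libraries and depth, so these values describe the genes and carry no p. With purine content in place of GAA, rho was highest for Ift81 (0.69), was 0.20 for Ift57 and turned to -0.12 for Ift57 without exon 4.

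**Figure D5:**
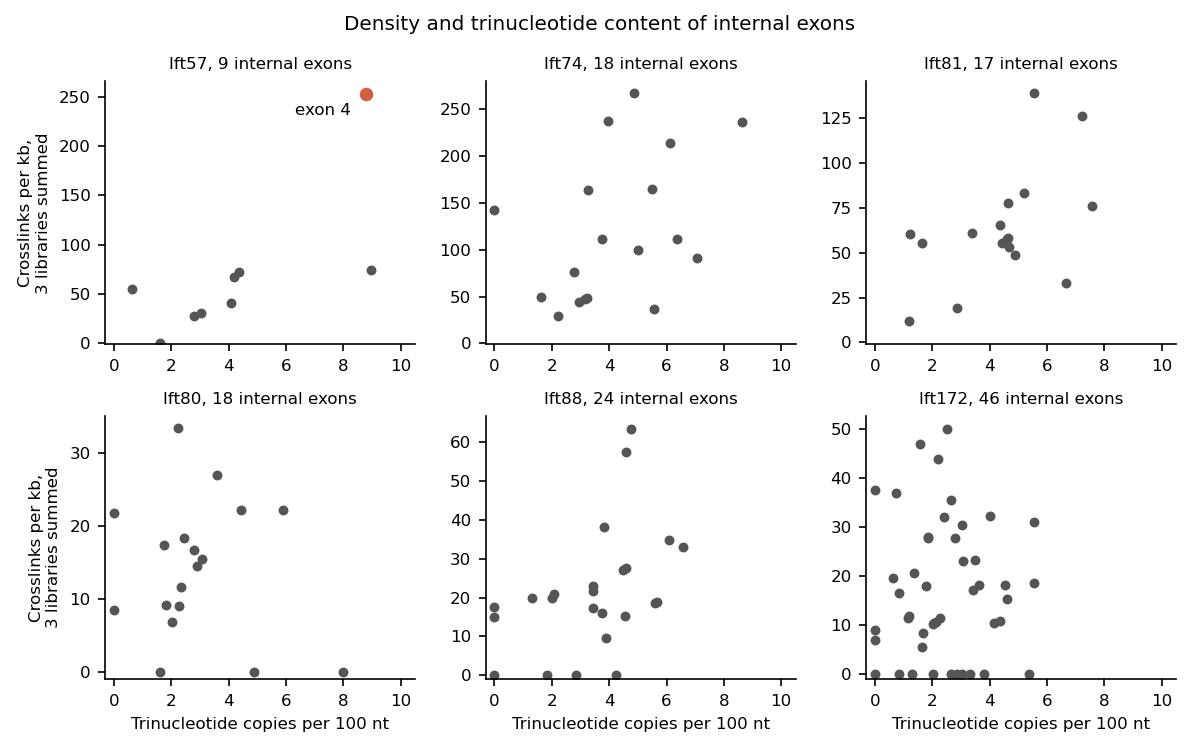
Crosslinks per kb (3 libraries summed) against copies of GAA per 100 nt for the internal exons of 6 IFT-B genes, with a separate vertical scale for each gene. Each point is an exon, and exon 4 of Ift57 (8.79 copies, 253 crosslinks per kb) is marked. Spearman's rho ranges from 0.05 in Ift172 to 0.82 in Ift57.

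At a finer scale, crosslinks lay near GAA little more often than other bases of the same exon did. Over the 9 members other than Ift57, 51.0%, 59.0% and 49.9% of exonic crosslinks had a GAA within 10 nt, against 47.4%, 51.0% and 48.6% of the bases of the exons they lay in. The ratio was 1.09 ± 0.0662 (SD, n = 3), beside 1.10 ± 0.0627 over all genes tested. By gene it was 1.29 ± 0.234 for Ift172, 1.19 ± 0.261 for Ift88, 1.10 ± 0.0394 for Ift81, 1.01 ± 0.0741 for Ift74, 0.928 ± 0.164 for Ift57 and 0.592 ± 0.518 for Ift80. On 16 exonic crosslinks or fewer each, it was 1.39 ± 0.414 for Ift20, 0.711 ± 0.687 for Ift46, 0.285 ± 0.494 for Ift52 and 0 for Ift27. Thus exons rich in GAA held more crosslinks in some members, but within an exon the share of crosslinks near GAA differed from that of the bases of the exon by less than 1 SD in Ift57, Ift74, Ift80, Ift88, Ift20 and Ift46. Internal exons of the members held a median of 3.03 GAA per 100 nt and 57.4% purines, against 2.63 and 53.9% over all genes tested.

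Few single nucleotides recurred between libraries. Of 1370 crosslinked positions in the members, 33 were hit in at least 2 libraries, 30 of these in exons, and no position had more than 4 crosslinks in a library. Ift74 held 16 of the 33 and Ift57 held 7. Those hit in all 3 libraries numbered 3, all in Ift74. One was chr4:94541192 in exon 9, with 2, 1 and 1 crosslinks, inside the window printed above with 5 copies of GAA. The others were the adjacent nucleotides chr4:94573992 (2, 1 and 1) and chr4:94573993 (1, 2 and 2) in exon 17.

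By count, the introns with the most crosslinks were single long introns of Ift57 and Ift74. Intron 6 of Ift57 (21600 nt) held 37, 49 and 28 crosslinks, 76.0% of those in the introns of the gene from 34.1% of their length. Its density with the libraries summed was 5.28 per kb, against 0.863 in the other introns. Intron 8 of Ift74 (17091 nt), which ends at exon 9, held 30, 41 and 20, or 46.4% from 22.3% of the length (5.32 against 1.76 per kb). Divided into 10 equal parts, both introns had crosslinks in every part, with 4 to 22 in those of Ift57 and 6 to 13 in those of Ift74. In both genes the leading intron was denser than the others in each library, as it also was in Ift88, Ift172, Ift52, Ift46 and Ift27. It was picked as the intron with the most crosslinks, and no share over all genes was computed.

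In the other members the leading introns held fewer crosslinks. They were intron 22 of Ift88 with 5, 8 and 6 crosslinks (2.63 against 1.17 per kb in its other introns), intron 35 of Ift172 with 2, 4 and 3 (3.63 against 1.37) and intron 5 of Ift80 with 12, 13 and 1 (1.49 against 0.751). In replicate 3 that intron of Ift80 was the sparser, at 0.0573 against 0.287 per kb. Intron 11 of Ift81 had 9, 10 and 5, a density below that of the other introns (1.31 against 1.60). Intron 1 led in Ift52 with 3, 3 and 2 (1.65 against 0.645 per kb) and in Ift27 with 4, 1 and 1 (1.04 against 0.127). Intron 2 led in Ift46 with 1, 1 and 2 (0.837 against 0.259), and intron 3 held the only intronic crosslink of Ift20. By ratio of densities, Ift27 lay above Ift57 and Ift46 above Ift74, on 7 intronic crosslinks each.

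Annotated exons outside the canonical transcripts formed 108 stretches in the members, and 13 of them held at least 3 crosslinks, 79 in all. The largest count, 6, 8 and 7, lay in 4049 nt of Ift74 intron 8 annotated as an exon of another protein-coding transcript, at a density (5.19 per kb) close to that of the whole intron. The densest was a 189-nt exon of a nonsense-mediated decay transcript in intron 2 of Ift74, chr4:94508401-94508589, with 2, 0 and 2 crosslinks (21.2 per kb). Ift74 further held 0, 3 and 1 in intron 13 and 0, 3 and 2 in intron 18. A 1793-nt stretch beyond the canonical end of Ift52, from a nonsense-mediated decay transcript, held 1, 4 and 3, or 8 in all, beside 12 in the canonical exons of the gene. The remaining 8 stretches lay in Ift80 (2), Ift81 (3) and Ift88 (3) with totals of 3 to 7, among them the retained introns 18 and 19 of Ift88 with 4 each.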

How the data were processed

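The members and gene lists were chosen with earlier results of these data known. Per the labels and the study's methods, the authors used the iMAPS pipeline and deposited whole-number counts of unique cDNAs per crosslinked nucleotide and strand on mm39 (GRCm39), with duplicates removed by random barcodes, replicates not pooled and no normalisation. The submitters' processing notes name Trim Galore 0.6.7, Bowtie 1.3.1, STAR 2.7.9a and UMI-tools 1.1.2. How multimapping reads were handled was not given in the sources used here.

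Crosslinks were counted on the gene strand in exons and introns of canonical transcripts (Python 3.11.15, SciPy 1.17.1). Exon and gene tests were two-sided exact binomial tests on length in each library, Benjamini-Hochberg adjusted over all features, for genes with at least 20 crosslinks. They were run on simulated counts drawn from the same binomial model, which does not cover spread beyond that model. Log2 folds add 0.5 crosslinks to each count. The leading exon is the internal exon with the most crosslinks. Named are leading exons, exons with at least 5 crosslinks, leading introns and other annotated exons with at least 3. Total counts per library were 348033 to 619571. Intervals and limits cover counting error only, and p-values within a library do not cover spread between animals. Alternatives changed the reference, minimum, pseudocount, overlap rules and libraries.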

Additional observations from a re-analysis of the deposited data

Results flagged for a closer look

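Crosslinks on the strand opposite to a member, outside genes annotated on that strand, passed the limit of 3 counts in 2 genes, in replicate 2 each. Ift172 had 3, 9 and 1 antisense crosslinks in replicates 1, 2 and 3 over 37901 nt free of opposite genes. Ift88 had 2, 4 and 2 over 103465 nt. The limit is not scaled to depth or length, and replicate 2 was the deepest library. Ift81, with 2, 2 and 3 over the shorter 59908 nt, did not pass it. The other 8 members had 0 to 3 per library, and Ift20, Ift46 and Ift52 had 0 in all. Both were picked out because the counts lie in data that no comparison above used, and no cause was tested.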

How the results depend on the processing

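With internal exons as the reference 17 exons over all genes were called higher and 0 lower (123 member exons tested). First and last exons are not tested in that setting. With coding bases 23 were called higher and 0 lower. Leaving out 1 library gave 178 to 367 calls higher and 224 to 404 lower. In the members without Ift57, a minimum of 50 crosslinks gave 1 lower call (Ift88 exon 26). Leaving out replicate 1 gave Ift81 exon 19 and Ift88 exon 26 lower, leaving out replicate 2 gave Ift74 exon 9 higher and Ift74 exon 20 and Ift88 exon 26 lower, and leaving out replicate 3 gave Ift88 exon 26 lower, a range of 0 to 1 higher and 1 to 2 lower. The log2 fold of Ift57 exon 4 fell to 3.39 with the pseudocount on observed and expected crosslinks, 2.90 against internal exons and 2.96 against coding bases. Genes called lower in exons numbered 2, or 1 with annotated exons left out of introns or with positions counted once, and 3 to 5 without 1 library. The calls of Ift74, Ift80, Ift81, Ift88 and Ift172 for exons over introns held under every alternative run. Leaving out libraries for gene levels was added after seeing the data, and without replicate 1 the level of Ift27 in exons and introns together fell from 9.14 to 3.66 CPM. No paired analysis was possible because there is 1 group. Most exons of the members held fewer than 5 crosslinks, which limits each exon profile.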
